A study of Mus musculus with 52 samples.

Results

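The genes described here are 30 mouse genes of cholesterol synthesis, uptake and control, read out of 20730 genes measured by RNA sequencing in primary osteosarcomas, malignant tumours of bone-forming cells. They were taken by name, not by how they moved, and all 30 were in the count table and passed the filter on low counts. They fall into 5 groups by role: 8 mevalonate and isoprenoid enzymes, 11 enzymes that turn their products into cholesterol, 5 genes of SREBP control, 3 genes of intracellular sterol transport, and 3 genes that the LXR receptors switch on. The tumours came from mice of 3 genotypes: p53R245W/fl, which carry 1 missense allele of Trp53 and 1 floxed allele, p53R172H/fl, which carry another missense allele and 1 floxed allele, and p53fl/fl, which carry only floxed alleles, so that all 3 genotypes share a floxed allele. A floxed allele is lost where Cre recombinase acts. The sources used here name neither the promoter that drives Cre nor the animals' age or sex.

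Cells make cholesterol from acetyl-CoA through mevalonate, farnesyl diphosphate, squalene and lanosterol. When membrane sterol falls, the escort protein Scap carries SREBP transcription factors, encoded by Srebf1 and Srebf2, from the endoplasmic reticulum to the Golgi, where cleavage frees a part that enters the nucleus and switches on the synthesis enzymes. When sterol is plentiful, the Insig proteins hold Scap back, and oxysterols activate LXR, which raises the exporters Abca1 and Abcg1. Missense p53 proteins have been reported to raise mevalonate pathway genes together with SREBP in human breast cancer cells, and wild-type p53 to restrain the pathway.

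The table held 52 libraries: 17 from p53R245W/fl, 19 from p53R172H/fl and 16 from p53fl/fl tumours. Total counts ran between 21596798 and 67223388 per library, with a median of 51026968.5. The column names were grouped by prefix into 3 sets, called A, B and C here, which the labels do not describe. Set A joins the prefixes FM and FNM (p53fl/fl) with WFM and WFNM (p53R172H/fl), and sets B and C hold 1 prefix each. Set A held 0 p53R245W/fl, 8 p53R172H/fl and 8 p53fl/fl libraries. Set B held 6 of each genotype, and set C held 11 p53R245W/fl, 5 p53R172H/fl and 2 p53fl/fl libraries. Within set C the column names carry differing tags that start with L. All p53R172H/fl and p53fl/fl libraries of set C share a tag, and of its p53R245W/fl libraries only tumour 1580 has it. Within set C this tag and the p53R245W/fl genotype can thus hardly be told apart. Each of the 18 libraries of set B was the mutual best match of a library of its own genotype in set A or C, with Spearman's rho between 0.637 and 0.942 over 9704 genes, against at most 0.525 for the next-best library. The labels do not say that matched libraries share a tumour, but p-values over libraries would then be too small. Such values are therefore given beside 2 others: a fit with matched libraries as correlated pairs and with the set as a term (the paired fit), and a test on summed counts of matched libraries. Both rest on 34 units, namely 16 single libraries and 18 matched pairs, of which 11 were p53R245W/fl, 13 p53R172H/fl and 10 p53fl/fl. Trp53 itself had median levels of 34.7 CPM (counts scaled to a common library total) in p53R245W/fl libraries, 36.2 CPM in p53R172H/fl libraries and 14.2 CPM in p53fl/fl libraries, and was higher in both missense genotypes than in p53fl/fl by edgeR and by the paired fit. Markers of bone-forming cells summed to between 2623 and 177300 CPM in p53R245W/fl, between 41500 and 166100 CPM in p53R172H/fl and between 31580 and 162600 CPM in p53fl/fl libraries, and 5 p53R245W/fl libraries had low Col1a1, the main collagen gene of bone.

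Levels of different genes are compared here per kilobase of exon. The transport gene Npc2, which binds cholesterol in lysosomes, stood highest with a median over all libraries of 40.9 CPM per kb. Abca1, which loads cholesterol onto lipoprotein particles at the cell surface, followed with 30.4 CPM per kb. Insig1, which retains Scap in the endoplasmic reticulum, came next with 19.5 CPM per kb. Among the mevalonate enzymes Hmgcs1 was highest on this scale, with 13.1 CPM per kb, and Idi1 was lowest, with 1.14 CPM per kb. The lowest of all 30 was Tm7sf2, a sterol reductase, with 0.414 CPM per kb. The library ranges overlapped widely, so that the order of neighbouring genes was within the spread over libraries.

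**Figure D1:**
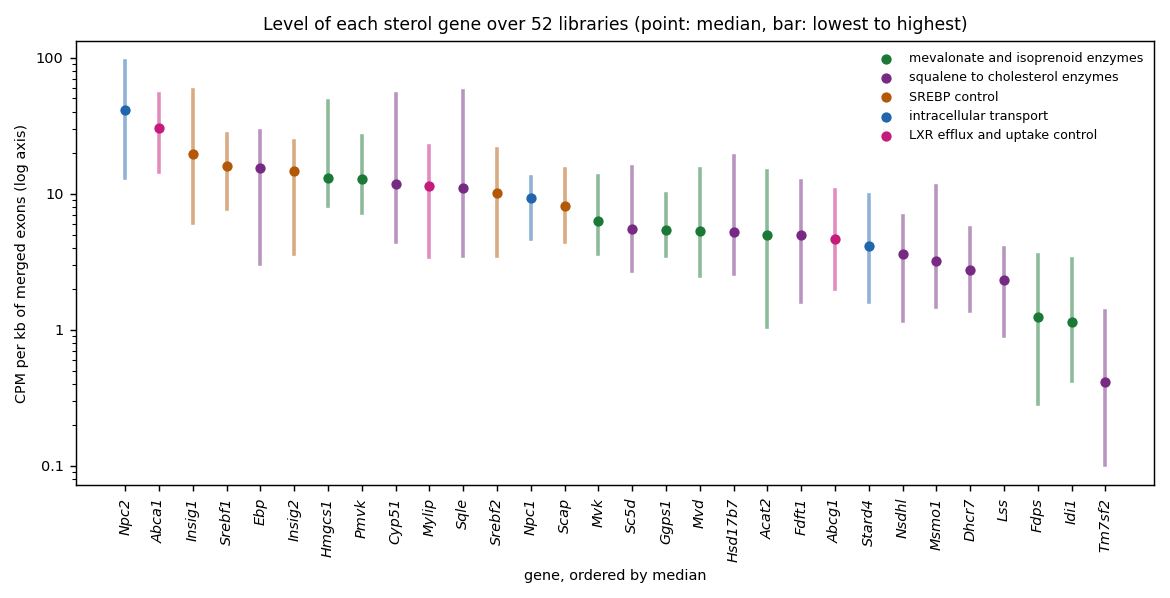
Levels of the 30 sterol genes in CPM per kilobase of exon (log axis), ordered by the median over all 52 libraries, with a point for the median, a bar from the lowest to the highest library and a colour for the role. Npc2 was highest, with a median of 40.9 CPM per kb, and Tm7sf2 lowest, with 0.414 CPM per kb.

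The first comparison sets p53R245W/fl against p53fl/fl tumours, missense p53 against loss of p53. In p53R245W/fl tumours 6 of the 30 sterol genes were higher by edgeR's quasi-likelihood test over libraries (Benjamini-Hochberg adjusted p under 0.05 over all 18882 genes tested) and 0 were lower. These were the mevalonate enzymes Hmgcs1, Mvk and Idi1, the later enzymes Fdft1 and Msmo1, and the cholesterol carrier Stard4. That is 20% of the sterol genes, and 26.3% of the 19 enzymes (5 genes), against 10% of all genes called higher and 7.82% called lower. The median log2 fold change was 0.33 over the 30 genes and 0.43 over the 19 enzymes, beside 0.036 over all genes. The calls depended on how matched libraries were treated: the test on summed counts kept Hmgcs1, Mvk, Fdft1 and Stard4 against 9.04% of all genes called in either direction, and the paired fit called 0 of the 30, with 8 at an unadjusted p under 0.05, against 0.0159% of all genes called. In bulk tissue, fewer cells of a type and less RNA per cell cannot be told apart.

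Hmgcs1, which joins acetoacetyl-CoA and acetyl-CoA at the entry to the pathway, had lowest, median and highest levels of 40.8, 101 and 221 CPM in p53R245W/fl libraries. The same 3 values were 37.3, 50.3 and 102 CPM in p53R172H/fl libraries and 45.8, 60.1 and 78.3 CPM in p53fl/fl libraries. The p53R245W/fl libraries were mostly high and the groups overlapped: 11 of 17 lay above the highest p53fl/fl library, and 8 of 17 above the highest p53R172H/fl library. With matched libraries averaged, 7 of 11 p53R245W/fl units lay above the highest p53fl/fl unit and 5 of 11 above the highest p53R172H/fl unit. The same shares over all genes are not given here. Against p53fl/fl, Hmgcs1 was higher by 0.89 on the log2 scale (SE 0.16, edgeR adjusted p = 0.000224). Summed counts gave 0.86 (SE 0.21, adjusted p = 0.0107) and the paired fit 0.76 (SE 0.22, limma adjusted p = 0.176). Within set B the difference was 1.02 (edgeR adjusted p = 0.216), and within set C, which has 2 p53fl/fl libraries, it was 0.77 (edgeR adjusted p = 0.998). Thus the direction was the same in both sets that hold p53R245W/fl tumours, while the call over libraries was lost within each. By the matching above these sets are not independent. Each p53R245W/fl library of set B is matched to a library of set C, and both p53fl/fl libraries of set C are matched to set B. Within sets B and C 0.022% and 0% of all genes were called in this comparison, in either direction.

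Mvk, mevalonate kinase, ran at 10.7, 22.5 and 36.1 CPM (lowest, median, highest) in p53R245W/fl and at 9.60, 13.3 and 29.5 CPM in p53fl/fl libraries. Of the 17 p53R245W/fl libraries 15 were over the median of p53fl/fl, but only 2 over its highest value. Of the 11 units 9 were over the p53fl/fl unit median and 2 over the highest p53fl/fl unit. The log2 fold change of Mvk was 0.59 (SE 0.15, edgeR adjusted p = 0.00392), and the paired fit gave 0.66 (limma adjusted p = 0.176). Within set B it was 0.54, but within set C it was 0.031 (SE 0.31), with 2 p53fl/fl libraries of 15.9 and 25.9 CPM. Idi1, which interconverts the 2 isoprene building blocks, ran at 2.25, 5.51 and 11.7 CPM in p53R245W/fl and at 1.47, 3.25 and 6.41 CPM in p53fl/fl libraries. Idi1 thus had the largest fold change of the 30 genes in this comparison, 0.95 on the log2 scale (SE 0.24, edgeR adjusted p = 0.00435), at 1 of the lowest levels. It missed the threshold with summed counts (0.86, edgeR adjusted p = 0.0580) and in the paired fit (0.72, limma adjusted p = 0.376). The other mevalonate enzymes Acat2, Fdps, Mvd, Pmvk and Ggps1 had positive log2 fold changes between 0.057 and 0.58 and were not called.

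**Figure D2:**
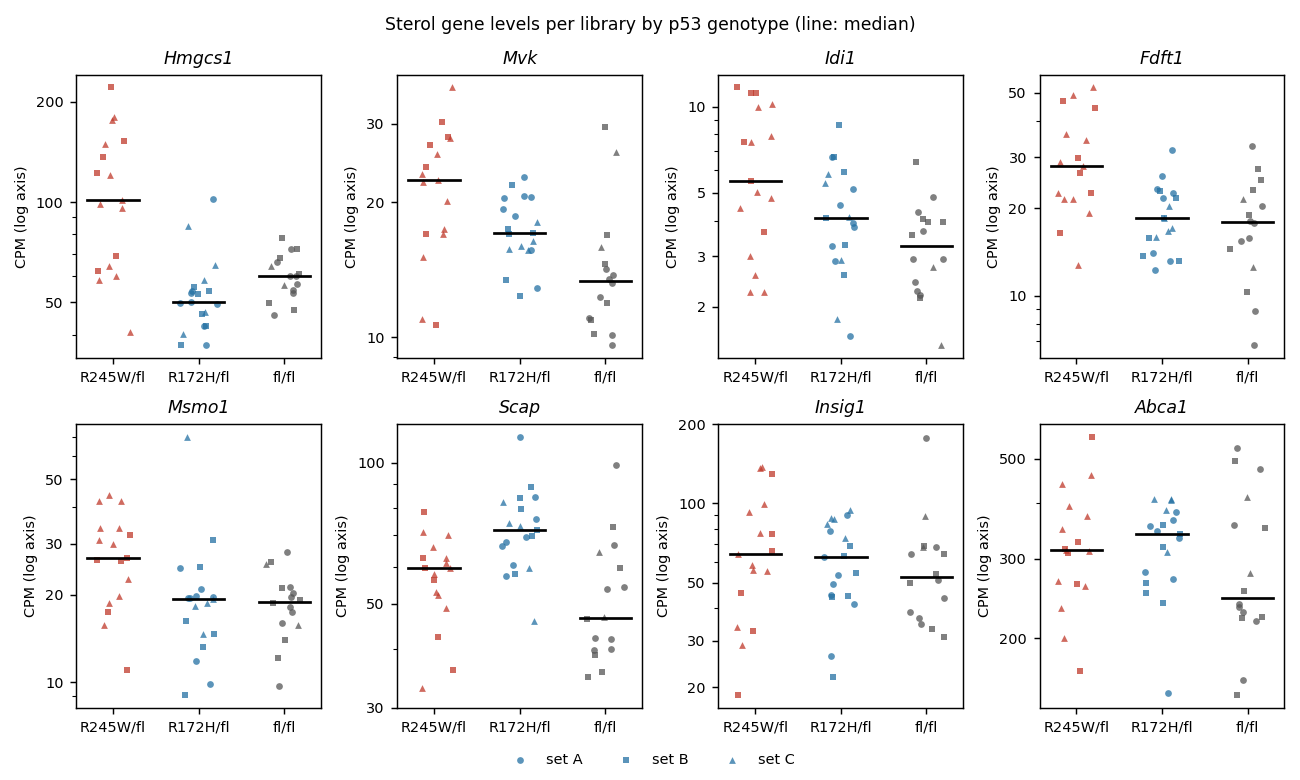
Levels of selected sterol genes in every library (CPM, log axis), with p53R245W/fl left of p53R172H/fl and p53fl/fl, a line at each group's median and a marker shape for the set. For Hmgcs1, 11 of the 17 p53R245W/fl libraries lay above the highest p53fl/fl library, and 7 of 11 units above the highest p53fl/fl unit. The groups overlapped for each gene shown.

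Fdft1, squalene synthase, commits farnesyl diphosphate to sterols. It ran at 12.8, 28 and 52.1 CPM (lowest, median, highest) in p53R245W/fl and at 6.78, 18 and 32.8 CPM in p53fl/fl libraries. Most p53R245W/fl libraries were above the middle of the p53fl/fl range, 15 of 17 above its median and 6 above its top. Of the 11 units 10 were above the p53fl/fl unit median and 4 above the highest p53fl/fl unit. The log2 fold change of Fdft1 was 0.74 (SE 0.18, edgeR adjusted p = 0.00361), with 0.75 in the summed counts (edgeR adjusted p = 0.0368) and 0.76 in the paired fit (limma adjusted p = 0.224). Msmo1, an oxidase that removes methyl groups from lanosterol's products, ran at 11, 26.8 and 44.2 CPM in p53R245W/fl and at 9.75, 19 and 28 CPM in p53fl/fl libraries. Its log2 fold change was 0.56 (SE 0.20, edgeR adjusted p = 0.0389), and 0.39 in the paired fit (limma adjusted p = 0.584). Stard4, which moves cholesterol between membranes, ran at 11.5, 25.3 and 54.6 CPM in p53R245W/fl and at 8.89, 19.4 and 35.9 CPM in p53fl/fl libraries. Its log2 fold change was 0.65 (SE 0.18, edgeR adjusted p = 0.00878), and 0.55 in the paired fit (limma adjusted p = 0.321). Sqle, squalene epoxidase and a rate-limiting enzyme, had a log2 fold change of 0.87 that edgeR did not call (SE 0.34, adjusted p = 0.0690), with the largest standard error of the 30 genes. Cyp51, the lanosterol demethylase, and Ebp, a sterol isomerase, were the only enzymes with log2 fold changes below 0, at -0.23 and -0.0079, and neither was called. That of Cyp51 rested on 1 p53fl/fl unit: without unit 4183, a setting chosen after seeing the data, it was 0.24 (SE 0.18, edgeR adjusted p = 0.373). Without that unit edgeR called 9 sterol genes in this comparison, against 19.6% of all genes called in either direction, with Sc5d, Dhcr7 and Srebf2 added. Without p53fl/fl unit 1979 it called 5, against 16.5% of all genes, and Msmo1 just missed the threshold (0.55, edgeR adjusted p = 0.0505).

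The second comparison sets the 2 missense alleles against each other. In p53R245W/fl tumours 7 sterol genes were higher than in p53R172H/fl tumours and 1, Scap, was lower. The 7 were Hmgcs1, Acat2, Idi1, Ggps1, Fdft1, Hsd17b7 and Npc2, which is 23.3% of the 30 genes, near the 18.2% of all genes called higher in this comparison, and 12.7% of all genes were called lower. The share among the 19 enzymes was 31.6%. Hmgcs1 differed most, by 1.06 on the log2 scale (SE 0.16, edgeR adjusted p = 6.28e-06). It was the only sterol gene called in the paired fit (0.88, SE 0.20, limma adjusted p = 0.0259), which called 1.55% of all genes. With summed counts, which called 15.2% of all genes, Hmgcs1 (0.95, adjusted p = 0.00265) and Fdft1 (0.61, adjusted p = 0.0490) were called by edgeR. Within set B the Hmgcs1 levels did not overlap: 62.2, 129 and 221 CPM (lowest, median, highest) in the 6 p53R245W/fl libraries, against 37.3, 49.6 and 55.7 CPM in the 6 p53R172H/fl libraries (log2 fold change 1.39, edgeR adjusted p = 0.0184). Of all genes 3.38% were called within set B in either direction, and the share of all genes without overlap is not given here. Within set C the Hmgcs1 levels overlapped, with 40.8, 98.8 and 180 CPM in p53R245W/fl and 40.3, 58.5 and 84.8 CPM in p53R172H/fl libraries (0.83, edgeR adjusted p = 0.228). There the column tag differs with genotype in all but 1 p53R245W/fl library, so the 2 can hardly be told apart.

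The other members called between the missense alleles changed less. Acat2, which makes acetoacetyl-CoA, ran at 9.02, 18.7 and 33.5 CPM (lowest, median, highest) in p53R245W/fl and at 2.66, 12.3 and 21.9 CPM in p53R172H/fl libraries (log2 fold change 0.66, edgeR adjusted p = 0.0191). Hsd17b7, a sterol ketoreductase, ran at 13.1, 33.9 and 95.7 CPM in p53R245W/fl and at 14.9, 25.2 and 40.7 CPM in p53R172H/fl libraries (0.47, edgeR adjusted p = 0.0429). For both genes the groups overlapped over most of their range, and only 5 of 17 p53R245W/fl libraries passed the highest p53R172H/fl library. By unit 3 of 11 passed for Acat2 and 2 of 11 for Hsd17b7. Npc2 ran at 79.4, 279 and 513 CPM in p53R245W/fl and at 71.2, 177 and 360 CPM in p53R172H/fl libraries (0.58, edgeR adjusted p = 0.0147). Ggps1, which makes geranylgeranyl diphosphate for protein prenylation, had a small log2 fold change of 0.34 (edgeR adjusted p = 0.0159), and Idi1 one of 0.57 (edgeR adjusted p = 0.0459). The counts of some genes may be shared: Acat2 lies beside the near paralog Acat3, and Ggps1, Fdft1 and Cyp51 overlap Arid4b, Ctsb and Akap9 on the opposite strand. Fdps and Tm7sf2 overlap the protein-coding genes Gm43738 and Vps51 on their own strand, which stranded reads cannot tell apart by strand. The kit was stranded, but the sources used here do not say whether counting used the strand.

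The third comparison sets p53R172H/fl against p53fl/fl tumours. Here 1 of 30 sterol genes was higher, Scap, and 0 were lower, against 1.46% of all genes called higher and 2.29% called lower. By edgeR 0 of the 19 enzymes were called (4 at an unadjusted p under 0.05). DESeq2 also called Scap alone among the 30, beside 6.21% of all genes called in either direction. The median log2 fold change was 0.088 over the 30 genes, beside -0.023 over all genes. Hmgcs1 had a log2 fold change of -0.17 (SE 0.16, edgeR adjusted p = 0.625), and only 3 of 19 p53R172H/fl libraries were over the median of p53fl/fl. By unit 2 of 13 were over the p53fl/fl unit median. Cyp51 at -0.67 (edgeR adjusted p = 0.0806) and Sqle at 0.69 (edgeR adjusted p = 0.248) had the most extreme log2 fold changes and were not called. Without p53fl/fl unit 4183 the value of Cyp51 was -0.19 (SE 0.18, edgeR adjusted p = 0.644), and edgeR called Mvk (0.46, adjusted p = 0.0391) beside Scap, against 2.59% of all genes in either direction. The paired fit and the summed counts called 0 sterol genes, with 3 and 2 at an unadjusted p under 0.05, against 0.0106% and 0.259% of all genes. This comparison and the first share the p53fl/fl libraries, and the difference between the missense alleles is the one tested in the second.

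**Figure D3:**
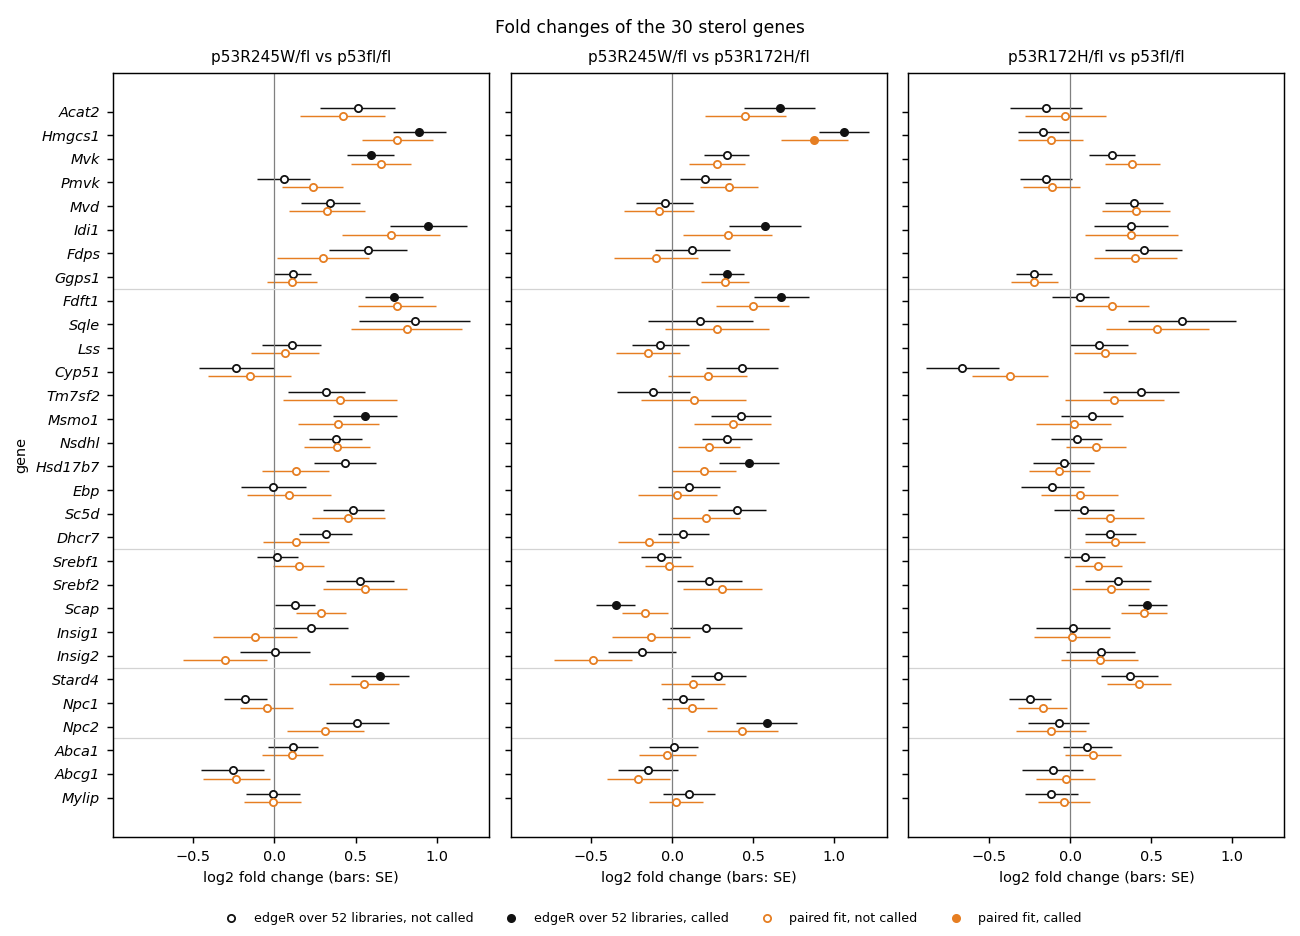
Log2 fold changes of the 30 sterol genes by role in the 3 comparisons, from edgeR over libraries and from the paired fit, with bars of 1 standard error and filled points for called genes. Most enzymes lay above 0 in p53R245W/fl against p53fl/fl, where the enzymes had a median of 0.43 and the 3 LXR genes one of -0.010.

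Among the SREBP control genes only Scap was called in any comparison. It ran at 33.1, 59.5 and 78.6 CPM (lowest, median, highest) in p53R245W/fl libraries. In p53R172H/fl libraries it ran at 46, 71.8 and 114 CPM, and in p53fl/fl libraries at 35, 46.7 and 98.7 CPM. The p53R172H/fl libraries were the high ones: 18 of 19 were over the median of p53fl/fl, although the ranges overlapped. By unit 12 of 13 were over the p53fl/fl unit median. Scap was higher in p53R172H/fl than in p53fl/fl by 0.48 on the log2 scale (SE 0.12, edgeR adjusted p = 0.0186), with 0.46 in the paired fit (limma adjusted p = 0.227) and 0.41 in the summed counts (edgeR adjusted p = 0.217). Within sets A, B and C it was 0.47, 0.66 and 0.25, each above 0 and none called by edgeR. Libraries of set B are matched to libraries of sets A and C, so by this matching these values are not independent. Between the missense alleles Scap was lower in p53R245W/fl by edgeR (log2 fold change -0.35, SE 0.12, adjusted p = 0.0214), at -0.17 in the paired fit (limma adjusted p = 0.573). Skeletal muscle markers moved with the same genotype: 5 of 6 were higher in p53R172H/fl than in p53fl/fl by edgeR, and they summed to between 50.9 and 10010 CPM in p53R172H/fl libraries, against between 13.7 and 1594 CPM in p53fl/fl libraries. Their part in the Scap difference was not tested. Scap thus had its highest library median in p53R172H/fl. Of the 19 enzymes 13 had theirs in p53R245W/fl, or 12 by unit medians, and the same share over all genes is not given here. Srebf2, the factor that acts most on cholesterol genes, ran at 38.3, 89.4 and 152 CPM in p53R245W/fl, at 25, 66 and 148 CPM in p53R172H/fl and at 27.5, 60.1 and 105 CPM in p53fl/fl libraries. Its log2 fold change of 0.53 against p53fl/fl was not called (SE 0.21, edgeR adjusted p = 0.0712). Srebf1, which acts more on fatty acid genes, Insig1 and Insig2 were not called in any comparison. Insig1, itself an SREBP target, had medians of 64.2 CPM in p53R245W/fl libraries, 62.4 CPM in p53R172H/fl libraries and 52.5 CPM in p53fl/fl libraries.

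By edgeR, 0 of the 3 LXR genes were called in any comparison, and 0 had an unadjusted p under 0.05, while DESeq2, the paired fit and the summed counts also called 0. Abca1 ran at 169, 314 and 559 CPM (lowest, median, highest) in p53R245W/fl, at 151, 341 and 407 CPM in p53R172H/fl and at 150, 246 and 529 CPM in p53fl/fl libraries. Abcg1, which exports cholesterol to high-density particles, ran at 14.8, 25.7 and 77.3 CPM in p53R245W/fl, at 21.2, 34.5 and 56.2 CPM in p53R172H/fl and at 14.4, 34.2 and 63.2 CPM in p53fl/fl libraries. For Abca1, 3 of 17 p53R245W/fl libraries lay above the highest p53R172H/fl library and 0 below the lowest. For Abcg1, 2 of 17 lay above and 5 below. Mylip, a ubiquitin ligase that removes lipoprotein receptors, had a log2 fold change of -0.010 in p53R245W/fl against p53fl/fl (SE 0.17). Levels of Abcg1 followed the summed macrophage markers across the 34 units (Pearson's r = 0.624, permutation p = 5e-05, Spearman's rho = 0.649, permutation p = 4e-05, adjusted p = 0.000800 over 16 relations), with r = 0.553 without the 2 units farthest from the median marker level. Within set A, B and C this r was 0.812, 0.512 and 0.573. For Abca1 the same r was 0.366 (permutation p = 0.0328, rho 0.372 with permutation p = 0.0319, adjusted p = 0.0875), and for Mylip it was 0.135. Macrophage markers summed to between 208 and 6644 CPM in p53R245W/fl, between 624 and 2262 CPM in p53R172H/fl and between 442 and 3126 CPM in p53fl/fl libraries, and no macrophage marker was at 0 in every library. Npc2 also followed these markers (r = 0.522, permutation p = 0.00120, adjusted p = 0.00960, r = 0.444 without the 2 farthest units), less so by rank (rho = 0.373, permutation p = 0.0299, adjusted p = 0.0638). Within sets A, B and C the r of Npc2 was 0.255, 0.750 and 0.609, and the part of macrophage RNA in the difference in Npc2 was not tested.

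A second feature of the libraries moved with genotype. Counts on gene models that the annotation types as TEC or sense intronic made up 0.0775, 0.152 and 0.317% (lowest, median, highest) of counts in p53R245W/fl libraries. They made up 0.222, 0.304 and 0.381% in p53R172H/fl and 0.104, 0.326 and 0.529% in p53fl/fl libraries. The share was thus mostly low in p53R245W/fl libraries. Across units it ran against Hmgcs1 (r = -0.434, permutation p = 0.00985, rho = -0.441, permutation p = 0.00922, adjusted p = 0.0315, r = -0.411 without the 2 farthest units). It also ran against Mvk (r = -0.491, permutation p = 0.00342, rho = -0.553, permutation p = 0.000950, adjusted p = 0.0182, r = -0.547 without the 2 farthest units). Within sets A, B and C the r was -0.0654, -0.482 and -0.185 for Hmgcs1, and -0.647, -0.350 and -0.350 for Mvk. Within p53R245W/fl, p53R172H/fl and p53fl/fl units it was 0.0962, -0.158 and -0.185 for Hmgcs1, and 0.140, -0.580 and -0.720 for Mvk. With this share as a covariate, edgeR called Hmgcs1, Idi1 and Fdft1 higher in p53R245W/fl than in p53fl/fl, against 4.33% of all genes called higher. Without the 5 p53R245W/fl libraries of low Col1a1 it called 9 sterol genes higher in that comparison, against 4.9% of all genes. These were Hmgcs1, Mvk, Idi1, Stard4, Fdft1, Hsd17b7, Npc2, Sc5d and Sqle, so that 5 of the 6 calls held without these libraries and that of Msmo1 did not. Idi1 followed summed proliferation markers across units (r = 0.460, permutation p = 0.00612, rho = 0.451, permutation p = 0.00750, adjusted p = 0.0245, r = 0.478 without the 2 farthest units, and 0.257, 0.509 and 0.578 within sets A, B and C), while Hmgcs1 had r = 0.116 (permutation p = 0.513, rho 0.0460).

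SREBP acts at sterol regulatory elements beside CCAAT boxes bound by the factor NF-Y. Whether such sites had a part in how these genes moved was not tested. RefSeq promoter sequences of build GRCm38.p6, in windows from upstream of the start to just after it, were matched for 24 of the 30 genes. They were searched on both strands for 3 motifs: the sterol element TCACNCCAC, the palindrome TCACGTGA and the box CCAAT. This box was in 21 of the 24, beside 41.1% of 27025 genes of the same table, and the 3 without were Acat2, Scap and Abca1. It was in 15 of the 16 enzymes that matched. The 27025 genes were not limited to genes measured here, while all 24 sterol genes passed the filter on low counts. The element TCACNCCAC was in Hmgcs1 alone, beside 1.44% of all genes, and overlapped no CCAAT box, and the palindrome was in 0 of the 24, beside 1.12% of all genes. Of matched genes called in no comparison, Mylip held 3 boxes and Nsdhl 4, while Acat2, called between the missense alleles, held none. Shown are the promoters of 4 of the enzymes higher in p53R245W/fl and of the LXR gene Abca1, which was not called. The windows are Hmgcs1 at chr13:119690101-119690400 (plus strand), Mvk at chr5:114444019-114444318 (plus strand), Idi1 at chr13:8885356-8885655 (plus strand), Msmo1 at chr8:64733529-64733828 (minus strand) and Abca1 at chr4:53159846-53160145 (minus strand), each written 5′ to 3′ along the gene. Capitals mark motif matches. In capitals, ATTGG marks the box read on the other strand. The longer run of capitals in Hmgcs1 is the sterol element TCACCCCAC.
Hmgcs1: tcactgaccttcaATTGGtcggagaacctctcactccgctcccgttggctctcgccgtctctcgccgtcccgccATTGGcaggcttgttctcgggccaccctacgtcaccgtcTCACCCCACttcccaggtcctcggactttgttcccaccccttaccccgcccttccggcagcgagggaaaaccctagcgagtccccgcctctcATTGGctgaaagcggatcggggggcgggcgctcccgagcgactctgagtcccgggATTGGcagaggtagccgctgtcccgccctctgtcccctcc
Mvk: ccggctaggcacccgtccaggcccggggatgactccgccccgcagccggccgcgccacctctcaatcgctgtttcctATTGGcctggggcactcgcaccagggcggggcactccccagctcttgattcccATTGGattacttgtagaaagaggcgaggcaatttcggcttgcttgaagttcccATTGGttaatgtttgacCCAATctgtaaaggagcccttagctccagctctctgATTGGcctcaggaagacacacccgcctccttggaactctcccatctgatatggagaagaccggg
Idi1: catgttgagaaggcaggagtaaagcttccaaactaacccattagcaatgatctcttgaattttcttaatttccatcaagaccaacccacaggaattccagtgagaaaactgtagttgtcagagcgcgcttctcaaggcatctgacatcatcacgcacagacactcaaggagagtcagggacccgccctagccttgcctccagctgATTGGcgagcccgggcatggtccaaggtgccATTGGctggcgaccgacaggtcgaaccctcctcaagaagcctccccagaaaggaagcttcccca
Msmo1: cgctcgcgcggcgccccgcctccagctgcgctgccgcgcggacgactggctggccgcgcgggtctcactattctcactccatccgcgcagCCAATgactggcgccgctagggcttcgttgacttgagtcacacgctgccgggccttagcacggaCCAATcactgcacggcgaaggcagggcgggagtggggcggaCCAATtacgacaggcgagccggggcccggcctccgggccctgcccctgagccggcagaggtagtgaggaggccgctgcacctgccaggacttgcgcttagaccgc
Abca1: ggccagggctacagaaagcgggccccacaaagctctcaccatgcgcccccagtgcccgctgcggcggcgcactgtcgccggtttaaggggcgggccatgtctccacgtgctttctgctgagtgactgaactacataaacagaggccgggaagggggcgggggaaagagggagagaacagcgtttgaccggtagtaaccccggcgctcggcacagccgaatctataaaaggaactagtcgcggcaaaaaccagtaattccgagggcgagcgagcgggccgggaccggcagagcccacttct
Hmgcs1 held 4 CCAAT boxes and the sterol element, which began 137 bases before the start. Mvk held 5 boxes, Msmo1 3 and Idi1 2, and Abca1 held none of the 3 motifs. A match is a description of these letters only and does not show that a factor binds there.

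Co-variation with Hmgcs1 was measured over the 34 units, as Pearson's r of log2 CPM with each of the other 29 genes. The SD between matched libraries, which leaves out shifts between sets, had a median of 0.171 over the 30 genes, and the SD over units one of 0.558 (log2). For Tm7sf2 they were close, at 0.469 and 0.567. Fdps shifted between sets: its matched libraries differed by a median of 0.84 and by up to 1.57 log2, beside an SD over units of 0.611. Of the 29 genes 11 passed an adjusted permutation p of 0.05, and all 11 were positive: Mvk, Hsd17b7, Msmo1, Srebf2, Idi1, Fdft1, Nsdhl, Sc5d, Cyp51, Acat2 and Ggps1, so 10 enzymes and the factor Srebf2. By rank 6 passed, Fdft1, Cyp51, Nsdhl, Hsd17b7 and Srebf2 with positive rho and Scap with rho = -0.46 (permutation adjusted p = 0.0490), of which 5 passed by both measures. The highest was Mvk (r = 0.589, permutation p = 0.000190, rho = 0.415, permutation p = 0.0151, adjusted p = 0.00454 for r and 0.0626 for rho, r = 0.528 without the 2 farthest units). For Srebf2 the r was 0.543 (permutation p = 0.000840, rho = 0.464, permutation p = 0.00637, adjusted p = 0.00609, r = 0.483 without the 2 farthest units). The share of all genes that would pass with Hmgcs1 is not given here, so these counts have no background. The relation with Hmgcs1 was not uniform over the groups. Within p53R245W/fl units Mvk alone passed (r = 0.882, permutation p = 0.000330, rho = 0.891, permutation p = 0.000590, adjusted p = 0.00957, n = 11), and within p53R172H/fl and within p53fl/fl units 0 genes passed. Within set A, which has no p53R245W/fl library, 0 of 29 passed by r and the r of Mvk was -0.156. By rank Scap passed there (rho = -0.75, permutation p = 0.00131, adjusted p = 0.038), with r = -0.534. Within set B 1 passed, Fdft1 (r = 0.731, permutation p = 0.000640, rho = 0.810, permutation p = 0.000140, adjusted p = 0.0186, r = 0.842 without the 2 farthest libraries). Within set C 8 passed by r, namely Mvk, Mvd, Idi1, Fdps, Ggps1, Msmo1, Nsdhl and Hsd17b7. By rank Pmvk and Fdft1 passed too in set C (permutation adjusted p = 0.03 for each), while Mvk, Mvd and Hsd17b7 did not. The r of Srebf2 with Hmgcs1 was 0.618, 0.557 and 0.438 within sets A, B and C. None of the LXR genes passed over all units.

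**Figure D4:**
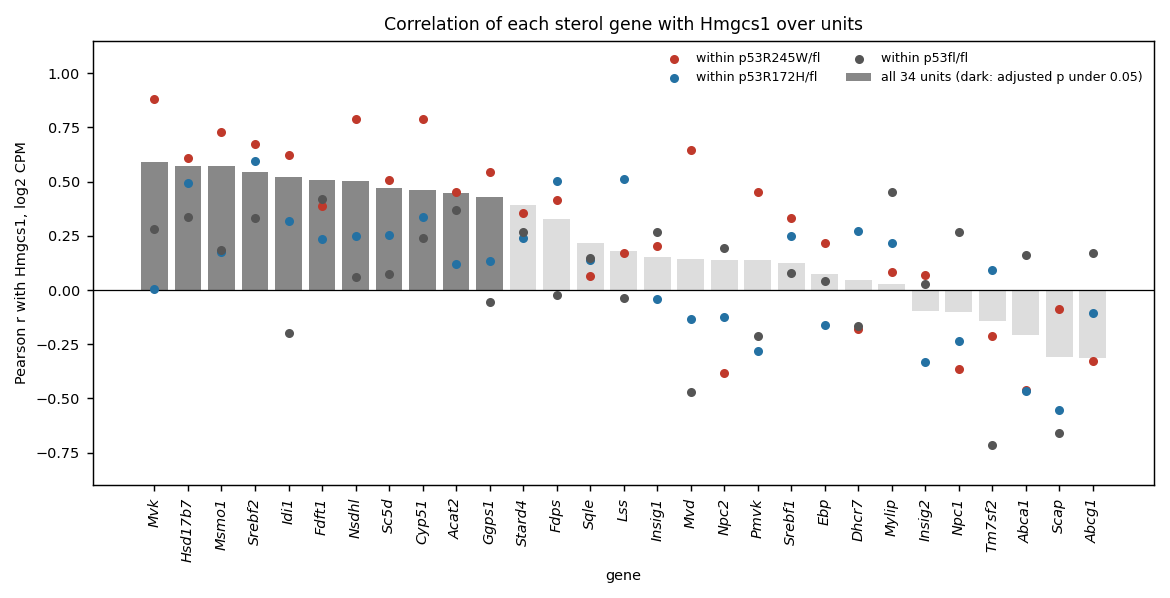
Pearson's r of each of the other 29 sterol genes with Hmgcs1 over 34 units (log2 CPM), in falling order, as bars that are dark where the adjusted permutation p was under 0.05, with points for r within each genotype. The 11 genes that passed the adjusted permutation test were 10 enzymes and Srebf2, led by Mvk with r = 0.589.

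Over all 171 pairs of the 19 enzymes the median r was 0.225 and 153 were positive, and with genotype means removed the median was 0.189 with 143 positive. These pairs share units, depth and tumour composition and are given as a description. The strongest pair was Cyp51 with Sc5d, a sterol desaturase (r = 0.660, rho = 0.588, and r = 0.591 without the 2 farthest units). Within sets A, B and C that r was 0.481, 0.671 and 0.683. Tm7sf2 stood apart with a median r of -0.015 with the other 18 enzymes.

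Sqle varied most of the 30 genes, with an SD over units of 0.969 log2, and its correlation was higher with its chromosomal neighbours than with the pathway. Its levels ran at 26.4, 71.1 and 196 CPM (lowest, median, highest) in p53R245W/fl, at 23.4, 52.4 and 316 CPM in p53R172H/fl and at 19.2, 42.8 and 101 CPM in p53fl/fl libraries. The groups overlapped, and the 5 highest units, between 176 and 308 CPM, were 3 p53R245W/fl and 2 p53R172H/fl units. With its 10 protein-coding neighbours within 1 Mb on chromosome 15, Sqle had a median r of 0.766, the highest such median of the 30 genes, and 9 of the 10 were over 0.5. With the other 18 enzymes its median r was 0.234. A higher median with neighbours than with enzymes was not particular to Sqle. Other members, among them Mvd, Ebp, Ggps1 and Scap, had it too, while others, among them Hmgcs1, Mvk and Cyp51, had the reverse. The nearest neighbour, Washc5, a subunit of the endosomal WASH complex with no role in sterol synthesis, had r = 0.789 with Sqle (permutation p = 1e-05, the smallest that 100000 permutations can give, rho = 0.669, permutation p = 3e-05, adjusted p = 1.8e-05 over 9 relations, r = 0.713 without the 2 farthest units). Within sets A, B and C that r was 0.81, 0.76 and 0.798, and within p53R245W/fl, p53R172H/fl and p53fl/fl units it was 0.701, 0.9 and 0.674. The highest unit, p53R172H/fl tumour 383, had Sqle at 308 CPM, and 20 of 21 neighbours within 3 Mb were over 1 log2 above their own medians there. The same share over all genes in that unit is not given here. Myc lies within the same 3 Mb, and its r with Sqle was 0.380 (permutation p = 0.0263, rho = 0.252, permutation p = 0.151, adjusted p = 0.0263), falling to 0.126 without the 2 farthest units. Copy number was not measured, and these relations were chosen after the values were seen.

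**Figure D5:**
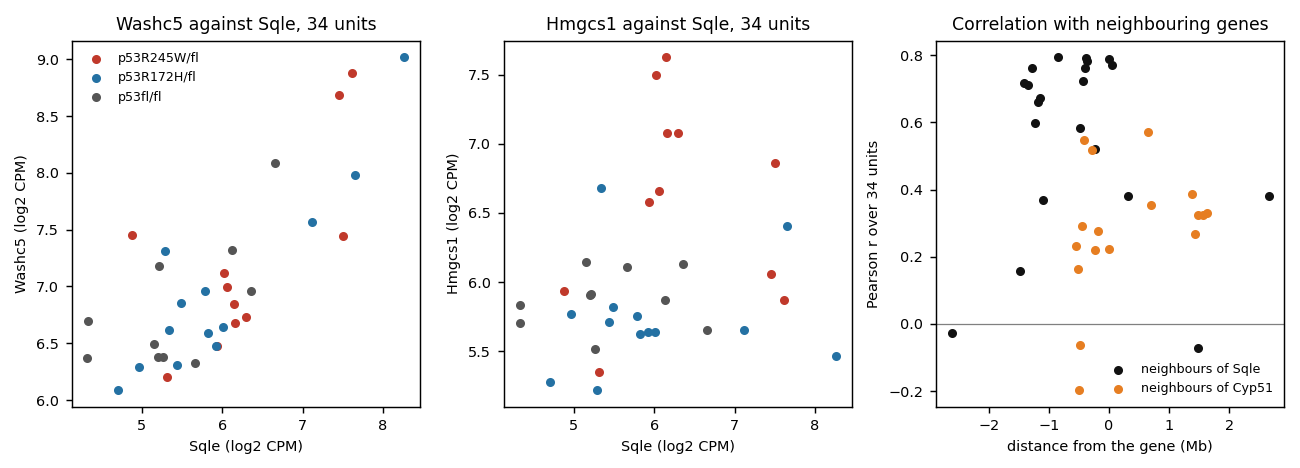
Washc5, a neighbour of Sqle, and the pathway enzyme Hmgcs1 on the vertical axes against Sqle on the horizontal axis over 34 units (log2 CPM, coloured by genotype), and Pearson's r of Sqle and of Cyp51 with each of their neighbours by distance (Mb). Sqle followed Washc5 (r = 0.789) and followed Hmgcs1 less closely (r = 0.218).

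Genes around the pathway were read from lists of related roles, 65 genes in all. In p53R245W/fl against p53fl/fl 10.8% of them were higher and 3.08% lower by edgeR, beside 10% and 7.82% of all genes. Against p53R172H/fl 15.4% were higher and 1.54% lower, beside 18.2% and 12.7% of all genes, and in p53R172H/fl against p53fl/fl 0% were higher and 3.08% lower, beside 1.46% and 2.29%. The shares called higher are thus near the background. Of 10 genes that process SREBP or degrade Insig proteins, 2 were higher in p53R245W/fl than in p53fl/fl by edgeR, Ufd1 (log2 fold change 0.31) and Faf2 (0.39), both of which serve extraction of proteins from the endoplasmic reticulum. Against p53R172H/fl, Erlin2, which acts on Insig degradation, was higher (0.41). Of 13 fatty acid synthesis genes, 2 were higher in p53R245W/fl than in p53fl/fl, the elongase Elovl5 (0.68) and Acly (0.44), which makes cytosolic acetyl-CoA. Between the missense alleles Acsl3, an acyl-CoA synthetase, was higher in p53R245W/fl (0.81), Elovl5 was higher (0.59) and Fasn, fatty acid synthase, was lower (-0.50). Against p53fl/fl, Acsl3 was lower in p53R172H/fl (-0.85). Of 15 genes of uptake, storage and transport, the caveolar gene Cav1 was higher in p53R245W/fl than in p53fl/fl (1.80) and than in p53R172H/fl (1.68), and the transporter Stard5 was higher than in p53R172H/fl (0.46). Soat1, which esterifies cholesterol for storage, was higher in p53R245W/fl than in p53fl/fl (0.46) and than in p53R172H/fl (0.74), and the second difference was called by the paired fit too (0.68, limma adjusted p = 0.0270). Of 8 LXR receptors, partners and targets, Nr1h3, which encodes LXR alpha, was lower in p53R245W/fl than in p53fl/fl (-0.86). Of 13 genes of isoprenoid use, Coq2, of ubiquinone synthesis, was higher in p53R245W/fl than in p53fl/fl (0.36) and than in p53R172H/fl (0.33). The farnesyltransferase subunit Fnta was lower in p53R172H/fl than in p53fl/fl (-0.64) and higher in p53R245W/fl than in p53R172H/fl (0.64). Of 6 oxysterol enzymes, Hsd3b7 was lower in p53R245W/fl than in p53fl/fl (-1.05), and Cyp7b1 was higher in p53R245W/fl than in p53R172H/fl (1.24). Of these calls the paired fit held Soat1 only.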

How the data were processed

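RNA of flash-frozen tumours was made into stranded mRNA libraries and sequenced in paired ends, per the labels' protocols. Raw counts per gene were deposited by the authors as whole numbers. STAR and GRCm38 are named in the submitters' processing notes; the sources used here name neither the counter nor its use of strand. Symbols were matched by Ensembl identifier for 20668 of 20730 genes.

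The groups were compared with edgeR 4.0.16 quasi-likelihood (TMM, filterByExpr with a minimum count of 10, all 52 libraries in 1 fit, Benjamini-Hochberg over all 18882 genes) in R 4.3.3, with limma 3.58.1 (voom, set as a term, pair correlation 0.857) as the paired fit and edgeR on summed matched libraries; DESeq2 1.42.0 and other settings were alternatives. Nothing says that libraries of a group came from separate animals, so p-values measure the spread between these libraries. Log2 CPM for correlations used a prior count of 2, with two-sided permutation tests of 100000 resamples. The test scripts were tested on simulated data. Named genes are all members, plus up to 4 called genes of each other list by smallest p; 1 of these is not reported here. The members and lists were chosen with earlier results of these data known, and the neighbour, composition and within-set relations after seeing the values. The unit of replication was the library, or the unit of matched libraries.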

Additional observations from a re-analysis of the deposited data

Results flagged for a closer look

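Each of the 30 sterol genes was checked for a single p53fl/fl unit far from the other 9 of the 10 (Dixon's test at the 95% level, which flags about 1 in 20 such groups by chance). Mvk stood out in unit 4183, at 4.79 log2 CPM, with the next unit at 4.04. Cyp51 stood out in the same unit, at 7.85 log2 CPM, with the next at 6.52. Insig1 stood out in unit 1979, at 7.47 log2 CPM, with the next at 6.30. The check was run only for groups of up to 10 units, so the 11 p53R245W/fl and 13 p53R172H/fl units were not checked.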

How the results depend on the processing

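Of 1110 values of single genes under the alternatives, 936 kept direction and side of the threshold, 74 kept direction but lost the call, 14 kept direction and gained it, and 86 changed sign. Of these 86, 82 had a log2 fold change over all libraries within 1 SE of 0 and were called in neither fit. The other 4 were, within set C, Mvk (-0.37) and Lss (-0.066) in p53R172H/fl against p53fl/fl and Dhcr7 (-0.13) in p53R245W/fl against p53fl/fl, and, without p53fl/fl unit 4183, Cyp51 in p53R245W/fl against p53fl/fl (0.24). For p53R172H/fl against p53fl/fl the 1 sterol gene called by edgeR went to 0 with matched libraries summed, in the paired fit and within sets A, B and C (6, 2 and 1 at an unadjusted p under 0.05 within the sets), and to 2 without p53fl/fl unit 4183. All genes called, in either direction, were 3.75% over libraries, 0.259% with matched libraries summed and 0.0106% in the paired fit. They were 0.532%, 0.00549% and 0% within sets A, B and C, and 2.59% without unit 4183. For p53R245W/fl against p53fl/fl the 6 called went to 3 with the TEC and intronic share as a covariate, and to 0 in the paired fit and within sets B and C (4 and 1 at an unadjusted p under 0.05 within the sets). All genes called were 17.8% over libraries, 5.83% with that covariate, 0.0159% in the paired fit, and 0.022% and 0% within sets B and C. For p53R245W/fl against p53R172H/fl the 8 called went to 5 with the set as a covariate, 2 with matched libraries summed, 1 in the paired fit, 5 without the low-Col1a1 libraries, 4 with the TEC and intronic share, 1 within set B and 0 within set C (3 at an unadjusted p under 0.05). All genes called were 30.9% over libraries, 22.8% with the set as a covariate, 15.2% with matched libraries summed and 1.55% in the paired fit. They were 22.5% without the low-Col1a1 libraries, 8.73% with the TEC and intronic share, and 3.38% and 0.0148% within sets B and C. Without p53fl/fl unit 4183, which enters through the shared spread, 11 sterol genes were called, with Mvk, Cyp51 and Sc5d added, against 30.8% of all genes. By Pearson's r, the 11 genes that correlated with Hmgcs1 went to 1 within p53R245W/fl, 0 within p53R172H/fl and 0 within p53fl/fl units. Chosen after seeing the data, they went to 0 within set A, 1 within set B and 8 within set C. By rank the genes that passed within sets A and C differed, as given above. Fewer libraries enter each within-set fit; the cause of the other changes was not tested. No paired analysis was possible because the genotypes share no replicate number to pair tumours across them; the paired fit above joins matched libraries of 1 genotype. Set A holds no p53R245W/fl library, so it gives no value for that genotype.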
